A study of Homo sapiens with 18 samples.

Results

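Control Caco-2 cells were compared at 48 h and at 24 h of culture, on 6 of the 18 arrays of the study, 3 for each time. Caco-2 is a human colon carcinoma line that behaves in culture much like absorptive intestinal epithelium and also makes many proteins of fetal liver. The study grew these cells without riboflavin (vitamin B2, from which cells make FMN and FAD) or in medium that contained it, and measured total RNA on Affymetrix arrays after 24, 48 and 72 h. The 6 control arrays were those titled as controls of 48 h and of 24 h, and the pairs were formed by the array numbers, which run once through all 6 groups in each of 3 sets.

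The 48 h group held untreated cells after 48 h in DMEM with foetal calf serum, penicillin and streptomycin, and the 24 h group held the same cells, medium and serum after 24 h. The riboflavin-depleted cells were grown in riboflavin-free DMEM, and the labels do not say which cultures received dialysed serum. All samples came from this 1 cell line. The labels leave unsaid whether replicates came from separate cultures. The p-values therefore measure only how far these samples spread, which may be technical. They also give neither the density of the cultures nor whether the medium was renewed between the times.

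A cell line that is left in its dish depletes glucose, amino acids and growth factors from the medium while the cell layer becomes denser. Cells sense scarce amino acids through the factor ATF4, glucose through the factors MondoA and ChREBP, and contact with neighbours through YAP, which works with TEAD factors on DNA. Caco-2 cells stop dividing and slowly take on enterocyte features once the layer is closed. These are general facts about the pathways whose genes are described here, and none of these conditions was measured on the arrays.

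Short stretches of promoter show the kind of DNA element that marks targets of ATF4 and of NF-kB, 2 of the gene lists described below. They are RefSeq sequences of GRCh38.p14, each running from 250 bases before to 50 after the start of the gene, on the strand of the gene. Capitals in the next pair mark TGATGNAA, a core of the amino acid response element that ATF4 binds. ASNS makes asparagine, and SLC7A1 imports cationic amino acids.
ASNS, chr7:97872359-97872658, minus strand: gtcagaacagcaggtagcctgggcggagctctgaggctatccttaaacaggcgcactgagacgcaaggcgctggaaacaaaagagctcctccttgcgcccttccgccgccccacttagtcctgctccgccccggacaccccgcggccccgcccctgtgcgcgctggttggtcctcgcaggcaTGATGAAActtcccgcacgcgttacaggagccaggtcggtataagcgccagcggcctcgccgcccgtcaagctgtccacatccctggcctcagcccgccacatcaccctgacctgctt
SLC7A1, chr13:29595639-29595938, minus strand: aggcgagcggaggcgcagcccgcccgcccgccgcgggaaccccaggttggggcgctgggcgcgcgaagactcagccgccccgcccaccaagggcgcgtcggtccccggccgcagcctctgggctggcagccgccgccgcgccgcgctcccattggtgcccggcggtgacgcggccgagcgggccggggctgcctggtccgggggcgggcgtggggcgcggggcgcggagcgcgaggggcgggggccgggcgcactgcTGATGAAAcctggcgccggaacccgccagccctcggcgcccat
The motif, searched on both strands, was present in 7 of the 35 measured genes of the ATF4 list with a promoter sequence (20%), against 3.67% of the 27303 genes with a promoter in the RefSeq table, by the first promoter listed for each gene. That number is by coincidence also the number of probe sets tested. Counted from the annotated start as 0, the match began at -68 in ASNS and at 7 in SLC7A1.

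In the next 4 promoters capitals mark GGAATTTCC, a sequence of the kind that NF-kB binds, or its reverse complement. CXCL1, CXCL2 and CXCL8 are chemokines that draw neutrophils, and NFKBIA is the inhibitor that holds NF-kB in the cytoplasm.
CXCL1, chr4:73869143-73869442, plus strand: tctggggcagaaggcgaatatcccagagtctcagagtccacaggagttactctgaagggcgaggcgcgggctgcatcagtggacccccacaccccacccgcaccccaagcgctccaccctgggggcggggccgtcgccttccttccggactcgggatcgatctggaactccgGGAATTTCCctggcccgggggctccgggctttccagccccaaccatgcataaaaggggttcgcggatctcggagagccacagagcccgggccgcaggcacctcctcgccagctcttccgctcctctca
CXCL2, chr4:74099146-74099445, minus strand: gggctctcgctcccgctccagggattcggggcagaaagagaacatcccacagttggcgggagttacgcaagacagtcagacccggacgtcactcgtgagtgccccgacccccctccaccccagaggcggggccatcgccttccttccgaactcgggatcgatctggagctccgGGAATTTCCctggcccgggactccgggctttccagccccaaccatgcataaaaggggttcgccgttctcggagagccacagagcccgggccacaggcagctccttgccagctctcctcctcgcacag
CXCL8, chr4:73740319-73740618, plus strand: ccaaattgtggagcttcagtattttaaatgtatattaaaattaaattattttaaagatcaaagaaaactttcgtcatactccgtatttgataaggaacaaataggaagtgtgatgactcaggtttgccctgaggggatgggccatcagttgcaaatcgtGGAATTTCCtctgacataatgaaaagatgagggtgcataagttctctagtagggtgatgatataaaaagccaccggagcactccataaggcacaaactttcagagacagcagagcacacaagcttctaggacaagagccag
NFKBIA, chr14:35404700-35404999, minus strand: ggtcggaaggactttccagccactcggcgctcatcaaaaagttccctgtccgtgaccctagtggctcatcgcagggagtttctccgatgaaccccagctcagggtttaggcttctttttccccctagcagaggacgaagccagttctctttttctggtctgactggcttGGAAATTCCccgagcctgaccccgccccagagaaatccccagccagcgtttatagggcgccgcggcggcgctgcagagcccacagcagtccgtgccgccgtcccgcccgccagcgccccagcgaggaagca
This motif, searched on both strands, was present in 7 of 16 promoters of the NF-kB list (43.8%), against 0.472% of 27303 promoters. Each of the 6 promoters holds 1 match of its own motif and 0 of the other. The lists hold textbook targets, so the shares describe the lists, and a match is no measured binding site.

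The values are MAS5 signals on a linear scale, which the authors scaled so that the mean of each array, with 2 percent trimmed at each end, was 100.011 to 100.014. Differences are on the scale log2(signal + 16), as 48 h minus 24 h, which understates changes of dim probe sets. Both times expressed the markers of the line. CDH17 (intestinal cadherin) had 2009.9 to 2621.2 at 48 h and 1591.2 to 2475.1 at 24 h, and VIL1 (villin) had 790.8 to 1988.7 and 834.9 to 1482.2. KRT20, a keratin of differentiated colon cells, was dim at 15.2 to 28.5 against 15.8 to 44.8. The leukocyte gene PTPRC had 5.3 to 16.6 against 1.4 to 3.9 and lay below the filter, while COL1A1, a collagen of fibroblasts, had 245.8 to 459.9 against 252.8 to 407.4. The summed signal of the fibroblast markers on the array (9 of 14 above the filter) was 1454 to 1836 at 48 h and 1346 to 1930 at 24 h, and that of the leukocyte markers (8 of 11) was 771.1 to 1138 and 874.7 to 1074. The sum of the Paneth cell markers (2 of 6 above the filter) was 294 to 326.1 at 48 h and 417.4 to 496.6 at 24 h, without overlap. Of these, PLA2G2A alone had 86.9 to 112.3 at 48 h and 171.2 to 189.4 at 24 h. The sum of the goblet cell markers (10 of 14) was 5350 to 6004 and 4903 to 5365. The part of these markers in the results was not tested.

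The ratio of the 3' to the 5' probe set of ACTB, which rises with RNA degradation or incomplete labelling, was 1.49, 3.03 and 1.13 in sets 1, 2 and 3 at 48 h and 1.89, 3.24 and 1.14 at 24 h. The arrays whose titles end in -2 stood apart in this ratio. They are the control 48 h, control 24 h and depleted 24 h arrays of set 2. Their ratios were 3.03 to 4.62, against 1.13 to 2.08 on the other 15 arrays. In set 2 both arrays of the pair therefore had a high ratio. The GAPDH ratio was 0.806 to 1.07 on all 18 arrays. Without the 3 arrays the test described below also called 0 probe sets. Set 2 as a whole, and not only its arrays titled -2, covered another range. Its arrays peaked at 27380.2 to 31409.8, whereas those of sets 1 and 3 peaked at 6904.8 to 8574.5. Medians went from 25.7 to 31.3 in set 2, and from 18.4 to 23.3 in the others. Values are given set by set, so that set 2 can be read apart. The part of the ratio and of this range in them was not tested.

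No probe set passed the test between 48 h and 24 h. In limma, with the set as a block and all 18 arrays in the fit, 0 of 27303 probe sets had an adjusted p under 0.05 (0%), and the smallest adjusted p was 0.364. At an unadjusted p under 0.05 there were 2032 probe sets (7.44%), of which 552 were higher at 48 h (2.02%) and 1480 lower (5.42%). Without the block the test also called 0, and 917 probe sets had an unadjusted p under 0.05. The median SE of a difference was 0.223, so a typical probe set had a 95% interval of 0.480 to either side. The median difference over all probe sets was -0.03. Since nothing passed the test, the genes below are described by their signals, and all but the riboflavin genes were chosen after their values were seen.

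The sign of the difference went with the level of the gene. Probe sets with a mean log2 level under 5.5 had a median difference of -0.13 at 48 h, and those at 10 or more had 0.06. In each of the 6 bands of level the median had the same sign in all 3 sets. The median signal of an array was 18.4, 28.3 and 19.1 in sets 1, 2 and 3 at 48 h, against 21.8, 29.4 and 23.3 at 24 h, so it was lower at 48 h in every set. Quantile normalization brought the medians of dim and bright probe sets to 0.00 and 0.01, and turned the split at an unadjusted p under 0.05 to 818 higher and 940 lower. Centring on the 75th percentile gave 1064 higher and 953 lower. Over 12317 genes, each by its brightest probe set, 13.7% were higher at 48 h in all 3 sets and 16.9% lower. At a level of 8 or more, a signal of 240, these shares were 23.3% and 10.3%, and below it 8.25% and 20.6%. Without overlap, 1.87% of all genes were higher and 4.2% lower, with 2.33% and 1.08% at a level of 8 or more and 1.6% and 5.96% below it. The counts of each list below are to be read against these shares.

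**Figure D1:**
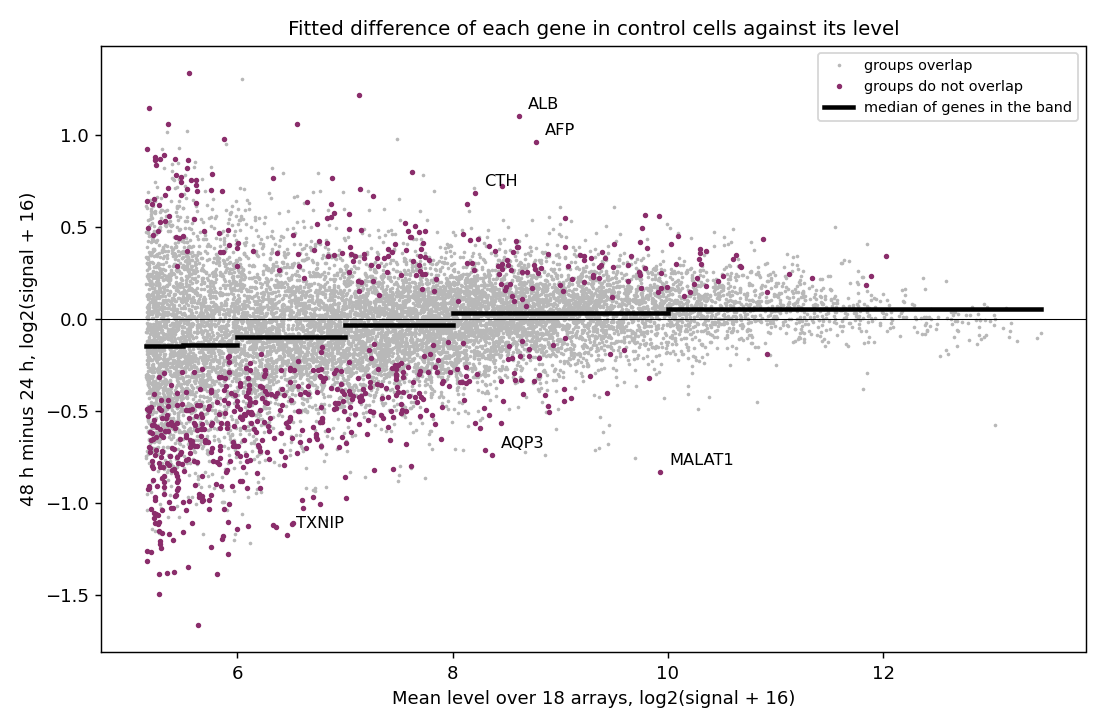
Each point is 1 of 12317 genes, with its mean log2(signal + 16) over 18 arrays on the x axis and its fitted difference, 48 h minus 24 h, on the y axis; purple points are genes whose 3 signals at 48 h lay all above or all below the 3 at 24 h. Black bars are the medians of the genes in 6 bands of level, which go from -0.15 in the dimmest band to 0.06 in the brightest.

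ALB and AFP had the largest positive differences among genes at a level of 8 or more whose groups did not overlap. Albumin (ALB), the main plasma protein made by liver, had signals of 1328, 758.6 and 940 in sets 1, 2 and 3 at 48 h, against 584.7, 284.6 and 538 at 24 h. AFP (alpha-fetoprotein), its fetal counterpart, had 1284.2, 1176.3 and 863.1 at 48 h, against 640.6, 592.6 and 445.2 at 24 h. For both genes all 3 arrays of 48 h lay above all 3 of 24 h, and for AFP the difference was 0.99, 0.97 and 0.93 in the 3 sets. The fitted difference was 1.10 ± 0.24 for ALB (SE, 95% interval 0.59 to 1.62, limma adjusted p = 0.364), a ratio of 2.15, and 0.96 ± 0.24 for AFP (0.46 to 1.47, adjusted p = 0.412), a ratio of 1.95. The other probe sets of ALB pointed the same way.

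The fetal liver secreted proteins as a list, ALB and AFP included, had differences in both directions. Of 21 measured genes, 9 of them at a level of 8 or more, 7 were higher and 3 lower at 48 h in all 3 sets, against 13.7% and 16.9% of all genes. Those higher without overlap were 3, ALB, AFP and ITIH2, against 1.87% of all genes. The median was 0.05 and ranged over -0.03 to 0.15 when an array or a set was left out. AHSG (fetuin-A, a plasma inhibitor of mineralisation) had 2341.5, 3712.2 and 1825.7 at 48 h and 1576.8, 2486.4 and 1418.1 at 24 h, higher in each set with overlapping groups. ITIH2, a heavy chain that binds hyaluronan, had 205.6, 254.8 and 180.6 against 180, 121.2 and 147.5. Its groups did not overlap, though only just, and its set 2 pair differed most. At the other end F10 and FGA, which encode a clotting factor and a fibrinogen chain, were lower in all 3 sets, with fitted differences of -0.43 and -0.33.

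Of the 37 lists with at least 5 measured genes, the ATF4 and amino acid response list had the highest median, 0.22, against -0.02 over all genes. Its medians were 0.33, 0.15 and 0.22 in sets 1, 2 and 3. Of its 42 measured genes, 32 of which lay at a level of 8 or more, 22 were higher at 48 h in all 3 sets and 1, XBP1, was lower. The share of bright genes that were higher in all 3 sets was 23.3%, as given above. In this list 7 genes were higher without overlap, against 1.87% of all genes, 2.33% of bright ones and 1.6% of those below level 8, and 13 had an unadjusted p under 0.05, against 1.95% of all genes on the higher side. None passed the test.

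Among enzymes of amino acid and folate metabolism, CTH, PSAT1 and SHMT2 had groups without overlap. CTH (cystathionine gamma-lyase, which makes cysteine) had 225.7, 154.9 and 169.9 at 48 h against 116.9, 107.4 and 96.4 at 24 h, a difference of 0.69 ± 0.15 (limma adjusted p = 0.368). PSAT1, an enzyme of serine synthesis, had 1182.7, 841.1 and 872.6 against 762.2, 576.2 and 600.2 (0.56 ± 0.13, adjusted p = 0.410). In both genes the lowest array of 48 h lay above the highest of 24 h. ASNS had 1399, 873.1 and 1109.1 at 48 h against 1107.3, 704.9 and 714.8 at 24 h, so that its groups overlapped although each set was higher at 48 h. The mitochondrial folate enzymes SHMT2 and MTHFD2 had 847.9, 1032.7 and 1161.5 against 632.9, 826 and 749.4, and 3544.8, 4921.1 and 2660.8 against 2363.9, 3484.3 and 2399.5. Each was higher at 48 h in every set, and MTHFD2 overlapped between the times.

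The list also holds transporters and signalling genes. SLC7A1, whose promoter is shown above, had 1275.8, 1129.9 and 1038.8 at 48 h against 937.1, 796.3 and 896.4 at 24 h, without overlap (0.38 ± 0.13, limma adjusted p = 0.524). SLC7A11, the cystine importer, had 406.1, 289.6 and 281.5 against 248.5, 255.6 and 221.5, also without overlap. VLDLR, a lipoprotein receptor, had 160.3, 173.1 and 161.6 against 99.2, 107.2 and 87.5 (0.67 ± 0.15, adjusted p = 0.364). Its difference was 0.61, 0.62 and 0.78 in the 3 sets. ATF4 itself had 3440.3, 2200 and 2515.2 against 2736.7, 1510 and 2417.6. TRIB3, a pseudokinase that ATF4 switches on, had 761, 558.6 and 561.6 against 383.5, 508.2 and 425.4, without overlap. Differences of XBP1, SESN2 and SLC1A4 were negative, at -0.19, -0.13 and -0.11.

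The targets of YAP and TEAD had a median of 0.21, with 0.33, 0.08 and 0.16 in sets 1, 2 and 3. Of 21 measured genes, 11 of them at a level of 8 or more, 8 were higher at 48 h in all 3 sets and 1 was lower, against 13.7% and 16.9% of all genes. In this list 3 genes were higher without overlap, against 1.87% of all genes. TEAD1, the DNA-binding partner of YAP, had 1119.2, 1297.4 and 1049.4 at 48 h against 692.6, 883.3 and 755.3 at 24 h (0.56 ± 0.14, limma adjusted p = 0.410). Another, dimmer probe set of TEAD1 had -0.03. AJUBA, a scaffold of cell junctions, had 1576.7, 1724.8 and 1433.2 against 1157.4, 1317.1 and 1281.4, without overlap. The matrix proteins CCN1 and CCN2, usual readouts of YAP, were higher in sets 1 and 2 but not in set 3. CCN2 had 425.5, 224.8 and 120.7 at 48 h against 161.9, 104.2 and 159.8 at 24 h, and CCN1 had 1346.1, 871.9 and 774.7 against 708.3, 447.4 and 788.2.

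**Figure D2:**
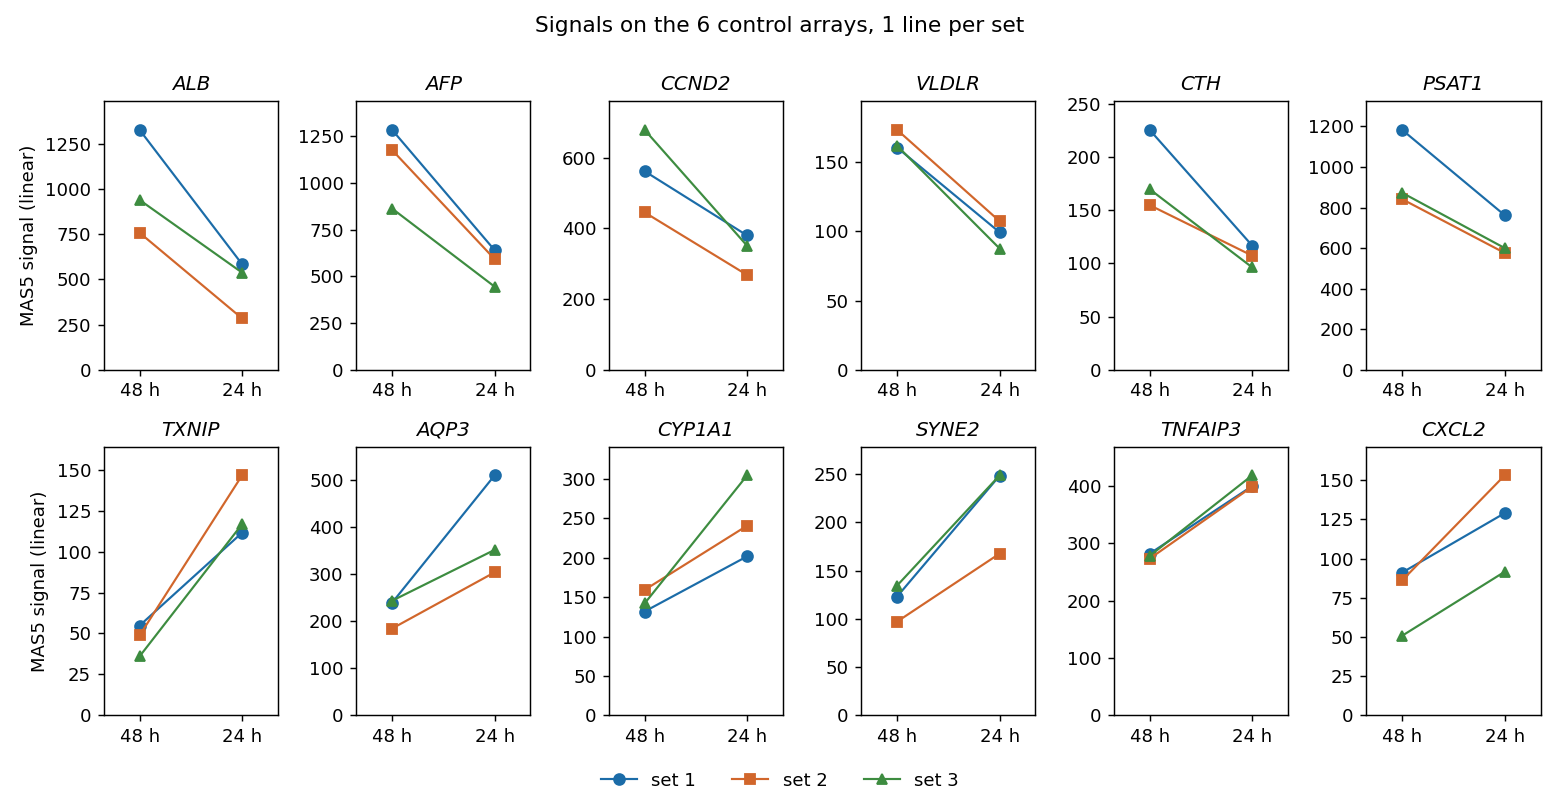
Linear MAS5 signals of 12 genes on the 6 control arrays, with 48 h left and 24 h right in each panel and 1 line per set (circles set 1, squares set 2, triangles set 3). The upper 6 genes were higher at 48 h in each set and the lower 6 were lower, and none of the 12 overlaps between the times, although CXCL2 comes within 1 unit of signal (91.1 against 91.6).

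At the other end of the lists stood the targets of MondoA and ChREBP, with a median of -0.39 and -0.49, -0.38 and -0.32 in sets 1, 2 and 3. Of 10 measured genes 0 were higher and 5 lower at 48 h in all 3 sets, 2 of them without overlap, against 4.2% of all genes and 5.96% of those below level 8. The genes are dim, with 2 of 10 at a level of 8 or more, and 20.6% of genes below that level were lower in all 3 sets. TXNIP, which binds thioredoxin and restrains glucose uptake and whose RNA follows glucose supply, had 54.8, 48.8 and 36 at 48 h against 111.5, 146.5 and 116.7 at 24 h. Every array of 48 h lay at 54.8 or less and every array of 24 h at 111.5 or more. Its difference was -1.18 ± 0.20 (95% interval -1.60 to -0.75, limma adjusted p = 0.364), and its other probe sets were lower too. KHK (fructokinase) had 2.2, 13.3 and 12.7 against 40.7, 38.3 and 38.4, near the bottom of the measured range. G6PC1, a glucose-producing phosphatase of liver and gut, and MLXIP, which encodes MondoA, were lower in all 3 sets at -0.61 and -0.46.

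A pair of fatty acid oxidation genes was also lower without overlap, while the list as a whole had a median of -0.01, or 0.06 with centring on the 75th percentile. CPT1A, the enzyme that admits long-chain fatty acids to mitochondria, had 48, 24.7 and 11.5 at 48 h against 102, 64.5 and 59.4 at 24 h (-1.11 ± 0.25, limma adjusted p = 0.368). ACADS, a flavin-dependent dehydrogenase of short chains, had 22.3, 41.7 and 9.3 against 61.7, 76.8 and 60.9. Both are dim genes. The bright HADHA, a subunit of the trifunctional protein of the same pathway, had 782.1, 489 and 913 against 660.4, 377.6 and 710.1 and was higher in each set. Of the 21 measured genes, 11 of them at a level of 8 or more, 3 were higher and 5 lower in all 3 sets, against 13.7% and 16.9% of all genes. The 2 without overlap compare with 4.2% of all genes on that side.

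NF-kB targets and chemokines had a median of -0.20 in the fit, and -0.37, -0.30 and -0.41 over the single sets. Of 19 measured genes, 4 of them at a level of 8 or more, 1 (PTGS2) was higher and 7 lower at 48 h in all 3 sets. Below that level 8.25% of genes were higher and 20.6% lower in all 3 sets. In this list 5 were lower without overlap, against 4.2% of all genes, 1.08% of bright ones and 5.96% of those at a level under 8. With an unadjusted p under 0.05 there were 5, all lower, against 4.97% of all genes on that side. TNFAIP3 (A20, which ends NF-kB signalling) had 282, 273.3 and 278.1 at 48 h against 399.9, 398.8 and 418.6 at 24 h. The 3 arrays of each time were within a narrow range, and the difference was -0.52 ± 0.15 (limma adjusted p = 0.469). NFKBIA had 169.4, 171.9 and 184 against 227.7, 224.6 and 371.9, also without overlap. CXCL1 had 37.9, 30.5 and 23.3 against 53.6, 66.7 and 51.2, and CXCL2 had 91.1, 86.1 and 50.8 against 129, 153.1 and 91.6. CXCL8 had 87.2, 97.1 and 27.2 against 134.4, 206.3 and 44.6. CXCL1 and CXCL2 did not overlap, whereas the groups of CXCL8 did, with set 3 low at both times.

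Of the lists of proliferation genes, those of mitosis, DNA replication and ribosome biogenesis had small positive medians. The G2/M and mitosis list had a median of 0.13 over 49 measured genes, of which 23 were higher at 48 h in all 3 sets and 3 lower. In the G1/S and DNA replication list 15 of 47 were higher and 8 lower, with a median of 0.08. That median was 0.04 with quantile normalization, 0.16 with centring on the 75th percentile and 0.03 to 0.11 with an array or set left out, and the G2/M median was 0.20 with that centring. The ribosome biogenesis and MYC target list had 15 of 42 higher, 2 lower and a median of 0.17. These are mostly bright genes (40, 32 and 30 of them at a level of 8 or more), for which 23.3% were higher and 10.3% lower in all 3 sets. The replication-dependent histones, with 1 of 14 measured genes at that level, had 1 higher and 4 lower. Below that level 8.25% of genes were higher and 20.6% lower in all 3 sets. The histone median was -0.005, or 0.06 with quantile normalization and -0.09 to -0.04 with an array or set left out. BUB1, a spindle checkpoint kinase, had 541.7, 604.1 and 482 at 48 h against 428.6, 372.1 and 427.1 at 24 h. BIRC5 (survivin) had 444.4, 482 and 511 against 366.9, 317.3 and 425, and each gene had a dimmer probe set with a negative difference. CCND2 (cyclin D2) had 561.6, 445.2 and 678.5 against 379.9, 268.2 and 350.8, without overlap and with its other probe sets in the same direction (0.72 ± 0.18, limma adjusted p = 0.414).

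PES1, a ribosome assembly factor, had 322.2, 276.3 and 599.9 at 48 h against 262.1, 102.7 and 401 at 24 h. Its sets differed more from each other than the times did. GRWD1, a histone and ribosome chaperone, had 103.8, 143.8 and 241.1 against 94.8, 88.6 and 99.9, without overlap.

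Genes of the mature enterocyte had no common direction. In the brush border and differentiation list, with 6 of 23 measured genes at a level of 8 or more, 3 were higher and 4 lower in all 3 sets, against 13.7% and 16.9% of all genes, with a median of -0.04, or 0.03 with centring on the 75th percentile. Without overlap 1 was higher and 3 lower, against 1.87% and 4.2% of all genes. The differences in the list ran from -0.76 to 0.50. SI (sucrase-isomaltase, the classic late marker of Caco-2 differentiation) had 111.4, 73.4 and 101.1 at 48 h against 144.8, 134.9 and 134.8 at 24 h, without overlap. CA2 (carbonic anhydrase) had 350.3, 185.3 and 346.9 against 431.6, 376.3 and 397.4, again without overlap (-0.48 ± 0.15, limma adjusted p = 0.482). Their differences were smallest in sets 1 and 3 and largest in set 2. The junction genes MARVELD3 and MARVELD2 (tricellulin) had 208.4, 239.7 and 250.1 against 319.7, 343.2 and 419.8, and 346.5, 350.7 and 316.8 against 499.9, 604.4 and 380.3. A dimmer probe set of each went the other way, at 0.13 and 0.41.

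Stress and detoxification genes were mixed. The NRF2 list, with 23 of 31 genes at a level of 8 or more, had 5 higher and 9 lower at 48 h in all 3 sets, against 23.3% and 10.3% of genes at that level, and a median of 0.00, or 0.07 with centring on the 75th percentile. AKR1C3, a ketosteroid reductase, had 231.6, 148.4 and 132.4 at 48 h against 369.3, 325.5 and 198.3 at 24 h (-0.74 ± 0.15, limma adjusted p = 0.364). HMOX1 (haem oxygenase) had 178.2, 187.1 and 205.8 against 244.6, 414.9 and 237.3. HMOX1 was without overlap and AKR1C3, lower in each set, was not. CYP1A1, an enzyme that the aryl hydrocarbon receptor induces, had 131.7, 159.1 and 141.9 against 201.6, 240.5 and 304.3. Among genes of sterol supply STARD4, a cholesterol carrier, had 1228.4, 1661.2 and 955.7 against 839, 1082.7 and 720.8, and INSIG1 had 1266.8, 825 and 713.6 against 725.3, 730.8 and 570.2. Both were higher in each set with overlapping groups, in a list with 7 of 19 genes higher, 2 lower and a median of 0.07. Of these 19 genes 13 lay at a level of 8 or more, where 23.3% were higher and 10.3% lower in all 3 sets.

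Targets of Wnt signalling, which keeps intestinal crypts dividing, were split, with 5 of 20 measured genes higher and 7 lower at 48 h in all 3 sets, against 13.7% and 16.9% of all genes. Of them 10 lay at a level of 8 or more. Their median was -0.06, or 0.02 with centring on the 75th percentile. CD44, a hyaluronan receptor, had 212.6, 175.5 and 192.5 at 48 h against 130.3, 148.1 and 133.7 at 24 h, without overlap. EPHB3, a receptor that sorts cells in the crypt, had 9.9, 19.2 and 23.7 against 35.3, 67.4 and 68.7, also without overlap but in the opposite direction. The feedback inhibitors NKD1 and NOTUM were lower in each set, with differences of -0.87 and -0.77, and another probe set of NKD1 had 0.61. NKD1 had 3.1, 45.1 and 19.7 against 42.5, 77.7 and 30, and NOTUM had 20.6, 3.5 and 43.8 against 49.1, 35.3 and 48. EPHB3, NKD1 and NOTUM all lay near the bottom of the measured range.

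Energy metabolism outside fatty acid oxidation gave small medians. The glycolysis and hypoxia list had 13 of 37 measured genes higher and 3 lower at 48 h in all 3 sets, with 23 of the 37 at a level of 8 or more, where 23.3% were higher and 10.3% lower. Without overlap 3 were higher, against 1.87% of all genes. The median was 0.11, or 0.18 with centring on the 75th percentile. Of 33 complex I genes 2 were higher and 2 lower in all 3 sets (median 0.00), fewer in each direction than the 23.3% and 10.3% of bright genes, and of 35 genes of complexes II to V 6 were higher and 0 lower (median 0.03, or -0.02 with quantile normalization). With that normalization the median of complex I was -0.08, and with centring on the 75th percentile 0.07. The medians of complex I were -0.08, -0.08 and 0.22 in sets 1, 2 and 3, so set 3 stood against the others. Enzymes that use FAD or FMN had 8 of 58 genes higher and 9 lower in all 3 sets, against 13.7% and 16.9% of all genes, with a median of -0.01, or 0.06 with centring on the 75th percentile.

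Riboflavin genes other than SLC25A32 had differences whose sign varied between sets. The list had 7 measured genes and a median of 0.11, which was -0.01 without set 3, and 1 of them, SLC25A32, was higher in all 3 sets. SLC25A32, the mitochondrial carrier for flavin or folate, had 390.7, 363.7 and 450 at 48 h against 298.5, 283 and 396.2 at 24 h (0.30 ± 0.15, limma adjusted p = 0.699). The plasma membrane carrier SLC52A2 had 174.1, 181.5 and 300.5 against 238.7, 156.6 and 202.5, and SLC52A3, dim on this array, had 19.6, 32.1 and 17.6 against 15.6, 13.1 and 26.3. For each carrier 1 set went against the other two. RFK (riboflavin kinase, which makes FMN) had 201.3, 365.7 and 145 against 220.8, 261.1 and 146.1. FLAD1, which makes FAD from FMN, had 159.4, 145.6 and 230.9 against 155.3, 162.7 and 209.7, a difference of 0.01 with a 95% interval of -0.29 to 0.30. ENPP1 had 75.7, 90.3 and 68.8 against 69.4, 106.8 and 46.3, and the phosphatase ACP1 had 1205.5, 1460.4 and 913.4 against 1228.5, 1444.9 and 802.1. All of these values overlap between the times. Dimmer probe sets of ENPP1, SLC52A2 and FLAD1 went the other way from the fitted difference, at -0.54, -0.17 and -0.06, while those of RFK and ACP1 did not.

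All genes, list members included, were also ranked by the size of their difference. The ranking took those with a mean signal of about 100 or more and groups without overlap, 318 of 7318 (4.35%). The 10 highest held ALB, AFP, CCND2, CTH, VLDLR and GRWD1, given above, and KLHL21, MPV17L, INSR and DRG2. MPV17L had 163.4, 263 and 164.1 at 48 h against 83.8, 125 and 106.1 at 24 h. KLHL21 (147.7, 229.3 and 155.2 against 101.5, 28.1 and 89.5), INSR, the insulin receptor, and DRG2 rested mostly on a low 24 h array of set 2, whose title carries the suffix -2. On the depleted 24 h array of set 2, also titled -2, KLHL21 had 34, again the lowest of its group. There INSR (210.1) and DRG2 (161.6) were the highest of theirs. Of the other probe sets of INSR, 3 had a negative difference. The other probe set of MPV17L had a difference of 0.04, and that of DRG2 had 0.11.

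The 10 lowest were METTL26, BMS1P1, MALAT1, SMG1P5, SYNE2, PLA2G2A, AQP3, CYP1A1, RBM4B and EPHB4. A dimmer probe set of BMS1P1 had a difference of 0.21. For METTL26 1 dimmer probe set had 0.05, and the others had -0.03 to -0.80. SYNE2 (nesprin-2, which ties the nucleus to the cytoskeleton) had 123.2, 97.2 and 134.6 at 48 h against 248.5, 167.7 and 248.8 at 24 h (-0.81 ± 0.21, limma adjusted p = 0.414). AQP3, a water and glycerol channel, had 239.2, 184.4 and 243.4 against 509.6, 303.7 and 351.4, while 2 dimmer probe sets of the gene had differences of 0.17 and 0.06. PLA2G2A, a secreted phospholipase that is also a Paneth cell product, had 93.3, 86.9 and 112.3 against 171.2, 189.4 and 182. The arrays of each time lay close together for PLA2G2A. The nuclear RNA MALAT1 had 499.3, 388.9 and 432.2 against 579.2, 665.9 and 1279.7, with set 3 the most different. METTL26 and RBM4B rested mostly on a low 48 h array of set 2, which also carries the suffix -2. On the control 24 h array titled -2, METTL26 had 155.5, the highest of its group, and RBM4B had 94.7, the lowest.

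**Figure D3:**
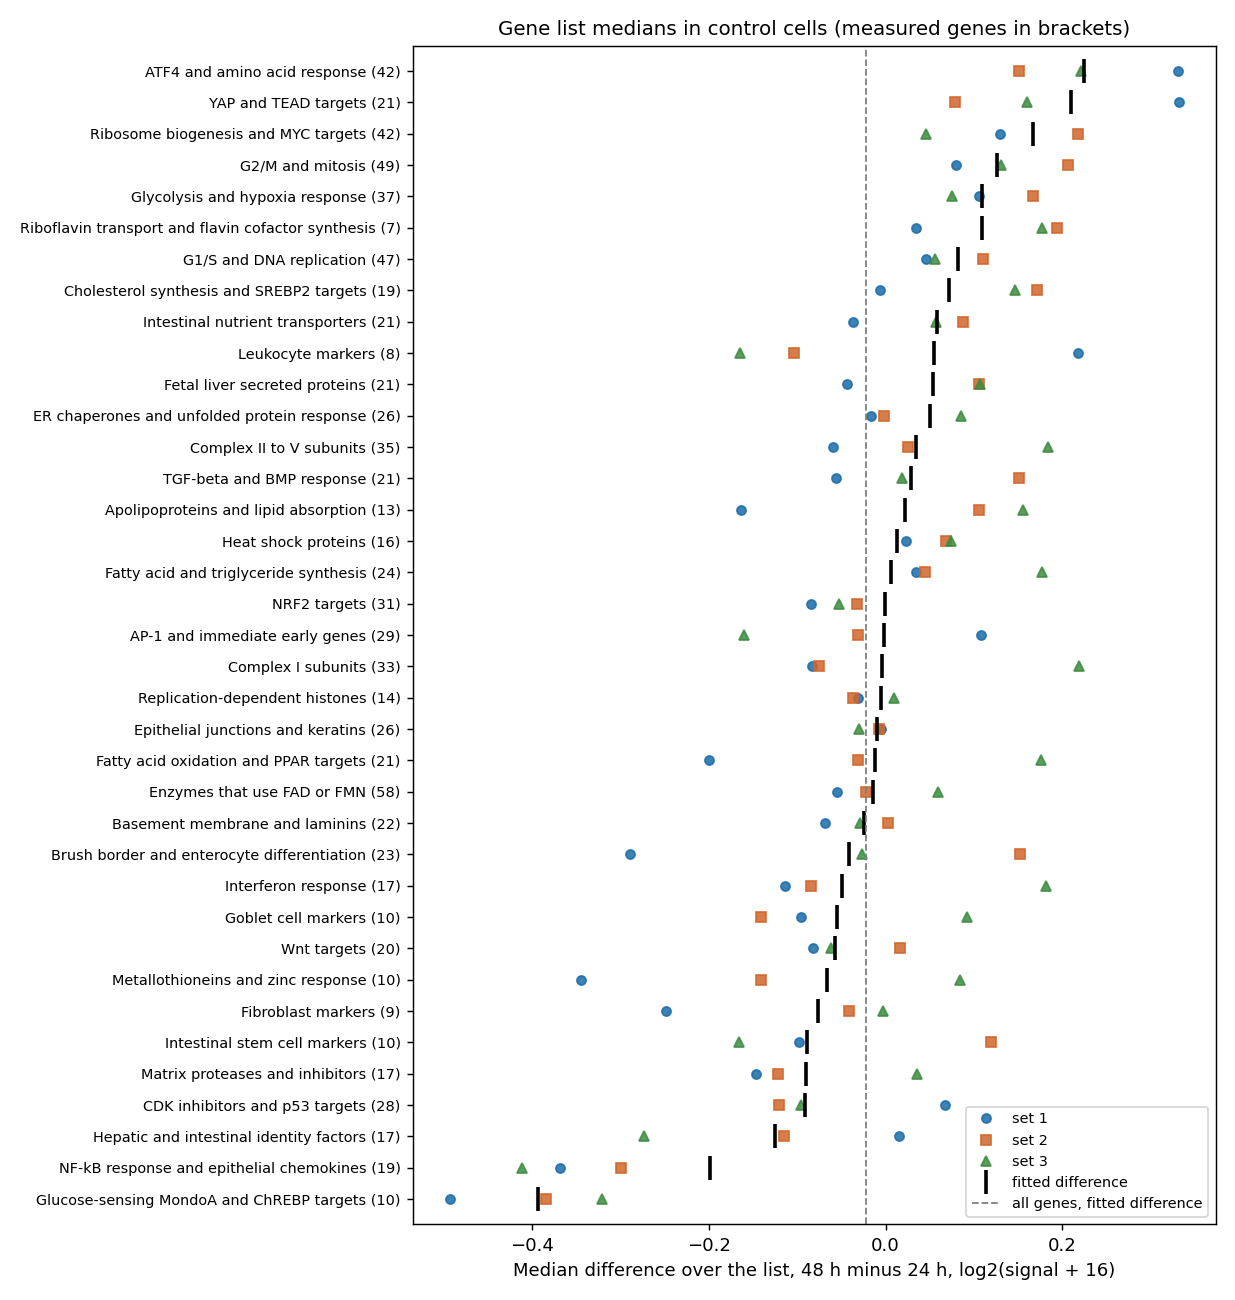
Median difference of each of 37 gene lists, 48 h minus 24 h in log2(signal + 16), with 1 point per set and a black bar for the fitted difference; the dashed line is the median of all genes, -0.02. The lists run from MondoA and ChREBP targets at -0.39 to ATF4 targets at 0.22, and most lists have sets on both sides of the dashed line.

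The next step of culture, 72 h against 48 h in control cells, shares the 48 h arrays with the step described here. In it 371 of 27303 probe sets passed the test (1.36%), 213 higher and 158 lower, or 19 without the block. The values of the ATF4 list in that step were a median of 0.57 with 13 genes called higher. CTH had 390.4, 301.7 and 280.9 at 72 h, and ASNS had 2409.7, 1631.7 and 2112.9, each above its values of 48 h set by set. The ribosome biogenesis list had a median of -0.44 with 5 genes called lower.

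The difference between the steps was tested itself, as the step to 72 h minus the step to 48 h. It called 3 probe sets (0.011%), each with a limma adjusted p of 0.0379, and none without the block. NPPB (natriuretic peptide B) had 717.4, 319.6 and 801.1 at 24 h, 981.8, 433.3 and 957.5 at 48 h and 53.9, 75.1 and 113.1 at 72 h, a difference between the steps of -3.39. NOX1, the NADPH oxidase of colon epithelium, had 281.7, 251.9 and 316.2 at 24 h, 531.7, 361.4 and 452.6 at 48 h and 196.8, 113.8 and 179 at 72 h, a difference of -2.01. For this probe set of NOX1 all arrays of 48 h lay above all of 24 h and of 72 h. Dimmer probe sets of NOX1 overlapped between 48 h and 24 h, with differences of 0.30, 0.39 and 0.32. They were not among the 3 called, and the brightest of them was lower in set 2, at -0.17. ASS1, which makes argininosuccinate from citrulline, had 207, 138.4 and 273.6 at 24 h, 166.3, 133.6 and 274.3 at 48 h and 657.7, 574 and 891 at 72 h, a difference of 1.95. Its step to 48 h was -0.11 ± 0.15.

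In riboflavin-depleted cells the test of 48 h against 24 h also called 0 of 27303 (smallest limma adjusted p = 0.0512), with 3236 probe sets at an unadjusted p under 0.05. The difference of the steps, depleted minus control, called 0 (0%, smallest adjusted p = 0.233), with 2214 at an unadjusted p under 0.05. Median differences of the ATF4 list were -0.26 in depleted and 0.22 in control cells. CTH had 328.3, 248.6 and 224 at 48 h and 400.8, 467.6 and 332.1 at 24 h in depleted cells, lower in each set, and the difference of the steps was -1.25 (adjusted p = 0.233). ASNS had 1797.4, 983.6 and 1235.7 against 2611.1, 2131.2 and 1935.8 there, with a difference of the steps of -1.18 (adjusted p = 0.233). When the test was limited to probe sets with a mean signal of about 100 or more, a choice made after seeing the data, 7 probe sets passed it. Those of CTH and ASNS and a second probe set of SHMT2 were among them, each with adjusted p = 0.0332. AFP had 373.9, 187.1 and 190.5 at 48 h and 160, 156.8 and 115.7 at 24 h in depleted cells, again higher at 48 h in each set.

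**Figure D4:**
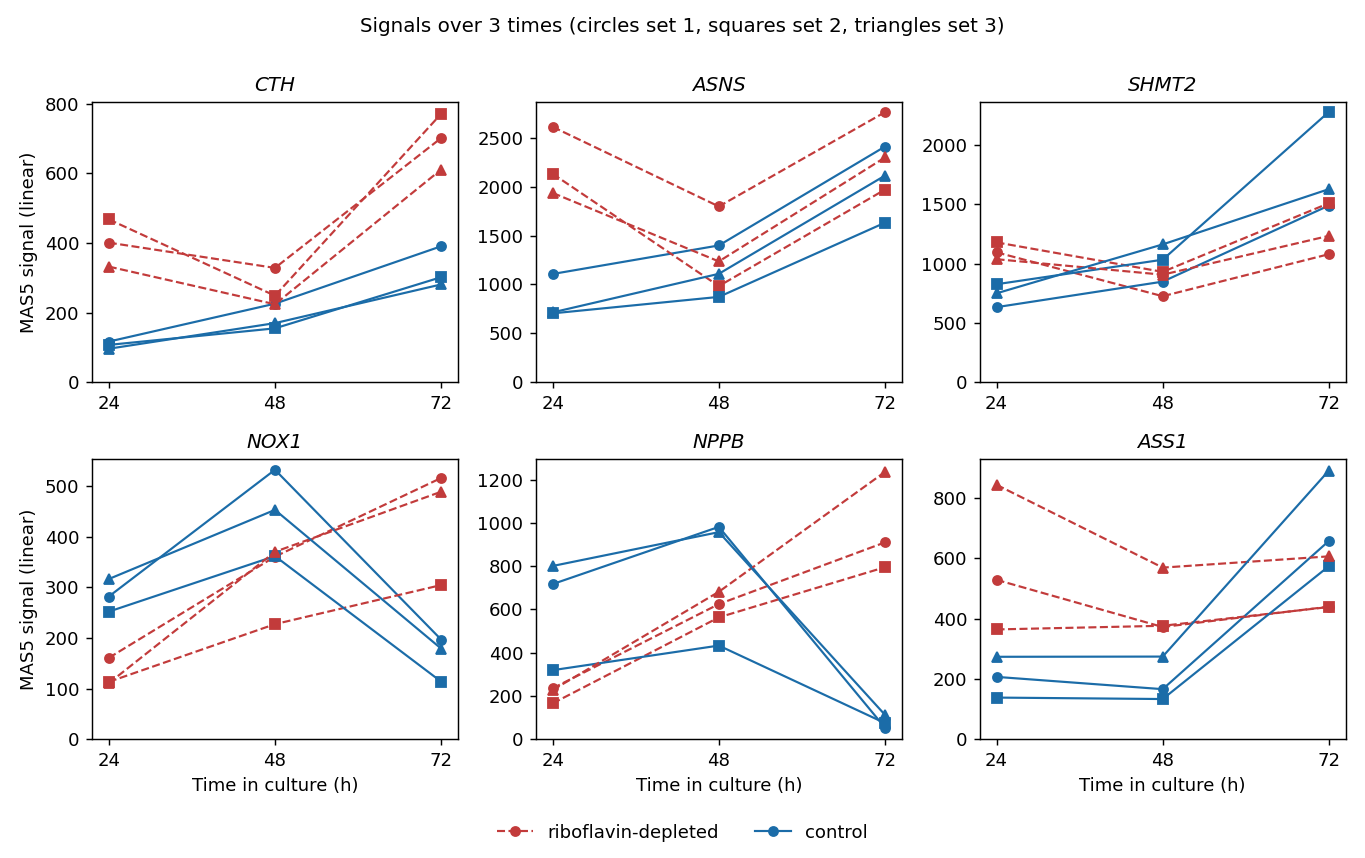
Linear MAS5 signals of 6 genes at 24, 48 and 72 h, with dashed red lines for riboflavin-depleted and blue lines for control cells, 1 line per set. In control cells CTH, ASNS and SHMT2 are higher at each later time in every set, NOX1 is highest at 48 h, and NPPB and ASS1 differ little between 24 h and 48 h beside their distance to 72 h.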

How the data were processed

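Signals were measured on 18 arrays, 3 for each of 6 groups. They are intensities on a linear scale from MAS5, per the submitters' processing notes, with the version not given in the sources used here, and the authors had scaled them before they were deposited. Of 54675 probe sets, 62 controls were left out, and those with a mean log2(signal + 16) of at least the median, 5.1549, were kept, which left 27303. Of these 22942 carried 1 gene symbol, 1096 several and 3265 none. A gene was represented by its brightest probe set.

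All arrays were fitted in limma 3.58.1 under R 4.3.3 with 6 group means and the set of 6 arrays as a block. Benjamini-Hochberg adjustment ran over every probe set tested, with a threshold of 0.05. The sets come from the array numbers in the titles. After group means were removed, arrays of a set correlated at 0.302 to 0.602 and arrays of different sets at -0.754 to 0.163. The fit was tested on simulated data.

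The comparison, the 39 gene lists and the members were chosen with earlier results of these data known. Genes were to be named from those past the test, with all measured riboflavin genes. As none passed between 48 h and 24 h, the other genes were chosen after their values were seen, as list members with an unadjusted p under 0.05 or without overlap, and as the 10 largest differences each way among bright genes without overlap. Alternatives changed the block, the added constant, the filter, the normalization and the arrays. The precision is limited by 3 arrays for each group. Figures were drawn with matplotlib.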

Additional observations from a re-analysis of the deposited data

Results flagged for a closer look

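In control cells the step to 72 h differed from the step to 48 h by the test of the difference itself for 3 genes, each by its brightest probe set. For NPPB the difference between the steps was -3.39 (log2, limma adjusted p = 0.0379, lower in all 3 sets), for NOX1 it was -2.01 (adjusted p = 0.0379, lower in all 3 sets), and for ASS1 it was 1.95 (adjusted p = 0.0379, higher in all 3 sets). None of the 3 passed without the block or in any of the 9 fits that left out a control array of 48 h or 24 h or a whole set, where the adjusted p ranged from 0.056 to 0.512.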

How the results depend on the processing

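The count of 0 for 48 h against 24 h stayed 0 under every alternative tried except a variance trend, added after seeing the data, which called 1 probe set, named COX1 by the platform (-0.58, limma adjusted p = 0.0158). The counts at an unadjusted p under 0.05 moved more. On the higher side, 552 in the reported fit, they were 171 with no replicate block, 1005 with no filter, 1064 with centring on the 75th percentile and 849 with the ACTB ratio as a covariate, and 423 to 730 with an array or set left out. On the lower side, 1480, they were 746 with no replicate block, 2743 with no filter, 940 with quantile normalization, 953 with the 75th percentile and 471 at a mean signal of about 100 or more, and 1046 to 1712 with an array or set left out. The 3 probe sets of the difference between the steps became 0 with no replicate block, with no filter and in all 9 leave-outs. They became 1 with a constant of 1, with quantile normalization and without the arrays titled -2, 20 with a constant of 64, 75 with the variance trend and 76 at a mean signal of about 100 or more. Depleted minus control gave 1 with a constant of 64, 4 with the variance trend and 7 at a mean signal of about 100 or more. The cause was not tested.

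The median of the ATF4 list was 0.19 to 0.35 over the leave-outs, 0.23 with quantile normalization and 0.30 with the 75th percentile. Those of the NF-kB list were -0.38 to -0.13, -0.18 and -0.12, and those of the MondoA and ChREBP list -0.49 to -0.29, -0.30 and -0.32. With arrays or sets left out, the medians of lists near 0 took both signs for fatty acid oxidation, NRF2 targets, FAD or FMN enzymes, both groups of respiratory subunits, fetal liver proteins and riboflavin genes. Of the named genes that were followed through the alternatives, only riboflavin genes changed sign, all with differences near 0 by the probe set used. XBP1, SESN2, SLC1A4, F10, FGA, G6PC1, MLXIP and PTGS2 were among those not followed, so their sign was not checked. With arrays or sets left out ACP1 ranged over -0.0515 to 0.158, RFK over -0.0669 to 0.226, SLC52A2 over -0.114 to 0.365, SLC52A3 over -0.0801 to 0.449, FLAD1 over -0.0564 to 0.0818 and ENPP1 over -0.0527 to 0.274. ACP1 was -0.0161 with quantile normalization, FLAD1 was -0.019 with the ACTB ratio, and without the arrays titled -2 RFK was -0.0669 and SLC52A3 -0.0801.

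With 3 pairs and a median SE of 0.223, small steps could not be detected, least of all in dim genes, where the median SE was 0.325 under a level of 5.5 against 0.142 at 10 or more. Detection calls were not used here, so signals near the bottom of the range cannot be told from background.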
